A study of Mus musculus with 8 samples.

Results

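The RNA polymerase I machinery was followed as 10 genes, namely Polr1a, Polr1b, Polr1c, Polr1d, Polr1e, Ubtf, Rrn3, Taf1b, Taf1d and Ttf1, in embryonic mouse hearts with Rps19bp1 deleted in cardiomyocytes. The members were chosen by symbol on primary chromosomes, each symbol stood on 1 row, and they are 10 of 52778 rows in the expression table. The knockout group (cKO) had 4 libraries of ventricular tissue from embryos carrying Rps19bp1 fl/fl and Xmlc2-Cre +/-, and the control group had 4 libraries whose Cre and floxed alleles the labels do not give. All embryos were taken at embryonic day 11.5 without treatment, the genotype field reads C57BL/6 WT for all 8 libraries, and the labels place them all in batch 1. The driver is described as specific to cardiomyocytes, while ventricles at this age also hold endocardial, epicardial and blood cells. The design text calls the 4 libraries of a group biological replicates, and whether a library pools embryos or shares a litter with another is not given in the sources used here.

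RNA polymerase I (Pol I) transcribes the nucleolar repeats that encode the precursor of the large ribosomal RNAs. The factor Ubtf coats the active repeats, the selectivity factor (TATA-binding protein with its associated factors, among them Taf1b and Taf1d) marks the promoter, and Rrn3 joins the polymerase to it. Ttf1 binds the terminator. Rapidly growing embryonic tissue depends on this output, and lowered Pol I activity is a known source of nucleolar stress. The targeted gene, Rps19bp1, encodes a small partner of ribosomal protein S19 that resides in the nucleolus.

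Before the values, the sequences directly before listed starts of the genes on which the comparison turns are shown. Which start is used in this tissue was not examined. Each run holds the 250 bases before a RefSeq start (GRCm38.p6), printed 5′ to 3′ on the gene's strand. Polr1e and Ubtf are shown because they differed between the groups, Cd3eap because it encodes the partner of Polr1e, and Rrn3 because it was the 1 member with the E-box. Capitals mark matches, on either strand, to CACGTG (the E-box of Myc and related factors), CCGGAAG (an ETS core), GGGCGG (the GC box) or TATAAA, none of which contains another.
Polr1e: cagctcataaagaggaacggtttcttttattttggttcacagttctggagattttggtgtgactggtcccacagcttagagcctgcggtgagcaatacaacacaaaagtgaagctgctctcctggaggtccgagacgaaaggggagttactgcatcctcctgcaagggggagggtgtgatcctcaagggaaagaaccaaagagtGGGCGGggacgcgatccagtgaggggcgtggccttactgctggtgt
Ubtf: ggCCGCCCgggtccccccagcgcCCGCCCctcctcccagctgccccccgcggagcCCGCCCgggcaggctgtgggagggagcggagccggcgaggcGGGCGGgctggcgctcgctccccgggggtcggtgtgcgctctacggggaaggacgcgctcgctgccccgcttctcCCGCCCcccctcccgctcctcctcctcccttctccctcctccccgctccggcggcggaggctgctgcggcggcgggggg
Rrn3: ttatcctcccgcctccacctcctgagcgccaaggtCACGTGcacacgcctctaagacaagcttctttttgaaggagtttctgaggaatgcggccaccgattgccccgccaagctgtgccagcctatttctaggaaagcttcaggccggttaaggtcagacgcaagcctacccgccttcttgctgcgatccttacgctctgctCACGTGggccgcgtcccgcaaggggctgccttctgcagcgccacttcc
Cd3eap: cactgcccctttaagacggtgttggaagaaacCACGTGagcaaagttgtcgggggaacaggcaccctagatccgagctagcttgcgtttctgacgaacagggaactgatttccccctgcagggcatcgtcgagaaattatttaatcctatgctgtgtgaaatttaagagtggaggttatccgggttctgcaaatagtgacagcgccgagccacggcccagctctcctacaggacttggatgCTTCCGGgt
These windows lie at chr4:45018359-45018608, plus strand (Polr1e), chr11:102317872-102318121, minus strand (Ubtf), chr16:13780449-13780698, plus strand (Rrn3) and chr7:19359484-19359733, minus strand (Cd3eap). For Ubtf the table lists 6 starts, and the window with the most GC boxes (5) is the one printed. The Polr1e window holds 1 GC box, the Rrn3 window 2 E-boxes, and the Cd3eap window 1 E-box and 1 ETS core. All 10 members had an entry in the RefSeq promoter table. Over all their listed starts, the GC box was found in 5 members (Polr1b, Polr1c, Polr1e, Ubtf and Taf1d), the ETS core in 2 (Polr1c and Ttf1), the E-box in Rrn3 and the TATA letters in 0. Among 32851 windows of the same length the shares were 32.7% for the GC box, 6.91% for the ETS core, 6.02% for the E-box and 12.4% for TATAAA. These shares count single windows, while a member counts if any of its starts matches, which favours Ubtf with 6 starts. The windows of Polr1d, Polr1c, Taf1b and Taf1d held 250, 225, 222 and 204 bases of annotated exons. A match is a description of letters and not evidence of a bound factor.

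The targeted gene and the tissue were checked first. Rps19bp1 (chr15:80260614-80264306, minus strand) was at 40.9, 44.2, 34.7 and 40.0 TPM in control replicates 1 to 4 and at 15.2, 11.8, 13.7 and 19.2 TPM in cKO replicates 1 to 4. The cKO libraries thus held 37.5% of the control level (log2 change -1.37, SE 0.127, limma adjusted p = 0.000508). TPM, a level per transcript length with the same total of 1000000 in each library, allows genes to be compared with each other, while the read depth behind each value is unknown. One protocol label names neuron cultures as the RNA source, but 20 cardiomyocyte genes had a median between 1783 and 2019 TPM in the 8 libraries and 10 neuronal genes one between 0.185 and 0.391 TPM, with Neurod6 listed at 0 in all of them. In these bulk samples, fewer cells of a type and less RNA per cell cannot be told apart.

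Across the 10 members the difference between groups was small, with 1 gene higher, 1 lower and 8 not past the threshold. Polr1e rose and Ubtf fell, and these 2 of 10 (20%) stood beside 6.4% of all tested rows. Of 15541 rows with a mean of at least 1 TPM, tested with limma on log2(TPM + 1) and adjusted by the Benjamini-Hochberg method, that 6.4% had an adjusted p under 0.05, 2.16% higher and 4.23% lower in cKO. With 10 genes, 1 gene more or less moves the members' share by 10 percentage points. An unadjusted limma p under 0.05 was found for 2 of the 10 members and for 3687 of the 15541 rows, so the members showed no excess on that measure. The summed level of all 10 was 388 to 405 TPM in control and 374 to 396 TPM in cKO. On the same scale, whose fold changes understate those of low genes, the median change of the members was -0.04 against -0.02 over all tested rows. Their median absolute change was 0.0679, against 0.103 over all tested rows. All 10 members passed the filter on low values. The balance of directions over all rows depended on scaling: the higher share of the calls was 33.8% for the deposited values, 50.2% with quantile normalization, 47.8% with median-ratio scaling and 51.03% with rescaling without mitochondrial, globin and ribosomal RNA rows.

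**Figure D1:**
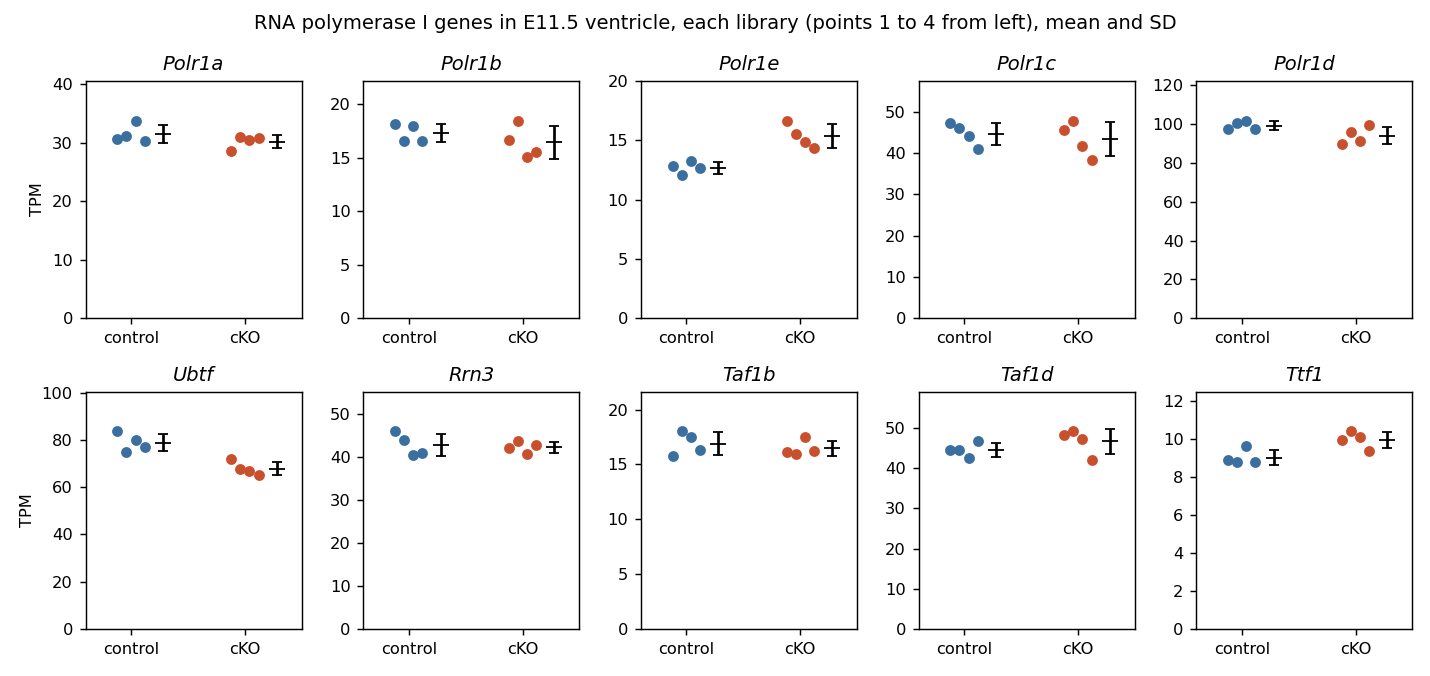
TPM (y axis, from 0) of each of the 10 genes in the 4 control (blue) and 4 cKO (red) libraries, replicates 1 to 4 from left to right, with the mean and SD in black. The groups are separate for Polr1e (control up to 13.3, cKO from 14.3 TPM) and Ubtf (cKO up to 71.8, control from 75.1 TPM) and overlap for the other 8. Over all tested rows, 15.6% had groups that did not overlap.

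Levels differed widely among the members, and the order was the same by group means in control and in cKO. In control, Polr1d stood highest at 99.2 ± 2.18 TPM (SD, n = 4), followed by Ubtf at 78.9 ± 3.75 TPM (SD, n = 4). Taf1d, Polr1c and Rrn3 followed with overlapping ranges, at means of 44.7, 44.6 and 42.8 TPM. Polr1a came next at 31.4 TPM. Polr1b (17.3 TPM) and Taf1b (16.9 TPM) overlapped each other, and Polr1e (12.7 TPM) and Ttf1 (9.02 TPM) were lowest, each below its upper neighbour in every control library. In cKO the ranges of Taf1b and Polr1e overlapped, while in control they did not.

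The catalytic subunits were examined next. Polr1a (chr6:71909053-71979435, plus strand) encodes the largest subunit, which forms the active site together with Polr1b. Its level was 30.7, 31.2, 33.8 and 30.2 TPM in control and 28.5, 31.0, 30.4 and 30.7 TPM in cKO. The groups overlapped, with control replicate 3 highest and cKO replicate 1 lowest (log2 change -0.06, 95% interval -0.18 to 0.06, limma adjusted p = 0.555). Polr1b (chr2:129100970-129128060, plus strand), the second largest subunit, was at 18.1, 16.5, 18.03 and 16.6 TPM in control and 16.7, 18.5, 15.1 and 15.6 TPM in cKO. Here the highest library of all, replicate 2, was a cKO library, and the groups overlapped (log2 change -0.07, 95% interval -0.23 to 0.08, limma adjusted p = 0.582). For both genes the interval holds 0 and extends further below it than above.

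Polr1e (chr4:45018609-45034279, plus strand) encodes a subunit found only in Pol I, which pairs with the product of Cd3eap (also named Polr1g) on the side of the enzyme and takes part in initiation and elongation. It was at 12.8, 12.1, 13.3 and 12.6 TPM in control and at 16.7, 15.5, 14.9 and 14.3 TPM in cKO. Every cKO library lay above every control library, and cKO replicate 1 was the highest. Mean levels were 12.7 ± 0.489 TPM in control and 15.4 ± 1.00 TPM in cKO (SD, n = 4), a log2 change of 0.25 (SE 0.0620, 95% interval 0.12 to 0.39, limma adjusted p = 0.0398, exact two-sided permutation p = 0.0286, the smallest that 4 libraries against 4 can give). Over all tested rows 15.6% had groups that did not overlap. The direction was the same in all 18 alternative analyses, with a change between 0.20 and 0.29, but only 8 of them kept the call, and adjusted p ran from 0.0264 to 0.0993. When a single library was left out, the call held without cKO replicate 4 and was lost without each of the other 7. The row shares 32 bp at its far end with Fbxo10 on the opposite strand, which was between 15.7 and 19.1 TPM and had a log2 change of 0.03.

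Cd3eap, from the list of further Pol I subunits, encodes the partner of Polr1e and lay on the other side. Its level (chr7:19356007-19359483, minus strand) was 27.9, 24.8, 28.4 and 26.1 TPM in control and 21.6, 24.3, 21.6 and 22.8 TPM in cKO. All cKO libraries were below all control libraries, although cKO replicate 2 and control replicate 2 were close. The log2 change was -0.24 (SE 0.0621, 95% interval -0.38 to -0.10) and just missed the threshold (limma adjusted p = 0.0508, 0.0405 to 0.133 over the alternatives, passing in 2 of 18). The gene was singled out after its values were seen, and 518 bp of its row overlap Ercc1 on the opposite strand (log2 change -0.06). Within a library, the ratio of Polr1e to Cd3eap does not change when all values of the library are multiplied by a common factor. It was 0.460, 0.487, 0.466 and 0.484 in control and 0.774, 0.638, 0.689 and 0.628 in cKO, a cKO mean 1.44 times the control mean. The ranges did not overlap, but the pair was chosen after both genes were seen to lie apart in opposite directions, so the ratio describes those differences and adds no test of them.

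**Figure D2:**
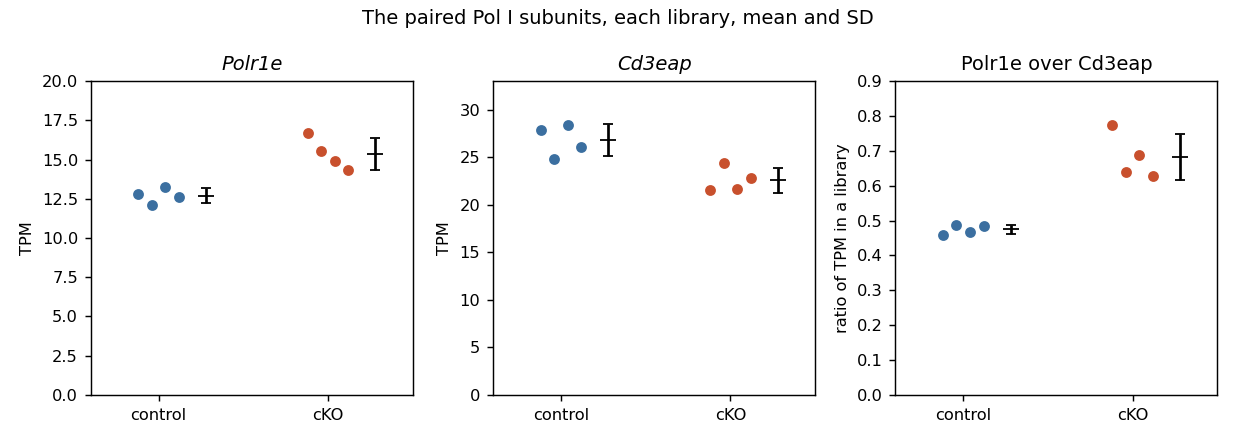
TPM of Polr1e (left) and Cd3eap (middle) and their ratio within a library (right) in 4 control (blue) and 4 cKO (red) libraries, with the mean and SD in black and axes from 0. The ratio runs from 0.460 to 0.487 in control and from 0.628 to 0.774 in cKO.

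Ratios were described for 4 other pairs, also chosen after the values were seen and given without a test. The ratio of Polr1a to Polr1b averaged 1.82 ± 0.0883 in control and 1.84 ± 0.174 in cKO (SD, n = 4), and the groups overlapped. The ratio of Polr1c to Polr1d averaged 0.450 ± 0.0284 and 0.462 ± 0.0553 (SD, n = 4), again with overlap. Relative to Polr1a, Polr1e ran from 0.388 to 0.418 in control and from 0.467 to 0.585 in cKO, without overlap, which restates the separation of Polr1e itself. A ratio that differs between the groups shows unequal change of its genes and not which of them was stable.

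The subunits shared with RNA polymerase III, which makes transfer RNA and the smallest ribosomal RNA, are encoded by Polr1c and Polr1d. They form the platform on which both enzymes are assembled, and inherited defects in either cause a craniofacial syndrome of the neural crest. Polr1c (chr17:46243920-46248045, minus strand) was at 47.2, 46.1, 44.1 and 41.0 TPM in control and 45.5, 47.8, 41.7 and 38.3 TPM in cKO. Replicates spread more than the groups did (log2 change -0.04, 95% interval -0.21 to 0.12, limma adjusted p = 0.772), and the sign of this change was positive after quantile normalization. Polr1d (chr5:147076715-147111361, plus strand) was at 97.4, 100.3, 102 and 97.4 TPM in control and 89.9, 95.9, 91.0 and 99.3 TPM in cKO. Of the 4 cKO libraries, 3 lay below all controls and replicate 4 lay among them (log2 change -0.08, 95% interval -0.18 to 0.03, limma adjusted p = 0.349).

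Among initiation factors, Ubtf (chr11:102304560-102323649, minus strand) encodes the architectural factor that keeps ribosomal repeats open for Pol I. Its level was 83.7, 75.1, 79.9 and 76.9 TPM in control and 71.8, 67.6, 66.7 and 65.2 TPM in cKO. The lowest control library, replicate 2, was above the highest cKO library, replicate 1. Groups without overlap were found for 15.6% of all tested rows. Mean levels were 78.9 ± 3.75 TPM in control and 67.8 ± 2.81 TPM in cKO (SD, n = 4), so that cKO held 86.0% of the control level. The log2 change was -0.21 (SE 0.0503, 95% interval -0.33 to -0.10, limma adjusted p = 0.0362, exact two-sided permutation p = 0.0286). All 18 alternatives gave a lower level in cKO (-0.24 to -0.15), and 5 kept the call, with adjusted p from 0.0320 to 0.109. All 3 scaling alternatives ended it: the change was -0.15 after quantile normalization (adjusted p = 0.109), -0.19 after median-ratio scaling (0.0542) and -0.18 after rescaling without mitochondrial, globin and ribosomal RNA rows (0.0601). With single libraries left out, the call held without cKO replicate 1 (adjusted p = 0.0475) and was lost without each of the other 7. The row covers 12 curated RefSeq transcripts, so the long and short forms of the protein, of which the long form is the stronger activator of Pol I, are not resolved.

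Relative to Ubtf, Polr1e was at 0.153, 0.161, 0.166 and 0.164 in control and at 0.232, 0.230, 0.224 and 0.220 in cKO. The 4 libraries of each group were close together and the groups far apart, with means of 0.226 ± 0.00570 in cKO and 0.161 ± 0.00563 in control (SD, n = 4). Because both genes were picked for their opposite changes, this ratio describes those changes and adds no test of them.

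Markers of proliferation, epicardium and mesenchyme differed between the groups, while the other cell type lists had few or no calls. Of 37 G1/S genes, 26 fell and 0 rose, and the list summed to 2283 to 2450.2 TPM in control and 1639 to 1944 TPM in cKO. Of 51 G2/M genes, among them Top2a, 35 fell and 1 rose (Psrc1), and their sum was 4282 to 4661 TPM in control and 3285 to 3761 TPM in cKO. In the cardiomyocyte list 2 of 20 fell and 0 rose, and 5 of 20 had a change above 0. In the epicardial list 5 of 9 rose (375 to 435 TPM in control and 442 to 544 TPM in cKO). In the mesenchymal list 4 of 11 rose (1838 to 2188 TPM in control and 2327 to 2675 TPM in cKO). Over all tested rows, 2.16% were called higher and 4.23% lower. Endocardial and endothelial (12 tested), erythroid (11) and macrophage (6) lists had 0 called by limma. An unadjusted p under 0.05 was found for 5, 0 and 1 of them, beside 3687 of 15541 tested rows. In the same order, 11, 1 and 5 genes lay above 0, with median log2 changes of 0.11, -0.36 and 0.43. The part of these shifts in the values of Ubtf and Polr1e was not tested.

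Rrn3 (chr16:13780699-13814841, plus strand), the growth-regulated factor that makes Pol I competent to start, was at 46.0, 43.9, 40.5 and 40.8 TPM in control and 42.0, 43.6, 40.6 and 42.9 TPM in cKO. The cKO values lay inside the control range (log2 change -0.02, 95% interval -0.14 to 0.10, limma adjusted p = 0.891), and the sign turned positive under all 3 scaling alternatives. Taf1b (chr12:24498581-24558571, plus strand), the selectivity factor part that resembles a general initiation factor of RNA polymerase II, was at 15.8, 18.02, 17.5 and 16.3 TPM in control and 16.2, 16.0, 17.5 and 16.2 TPM in cKO. Its groups overlapped, with cKO replicate 3 above the other cKO libraries (log2 change -0.04, 95% interval -0.17 to 0.10, limma adjusted p = 0.768).

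Taf1d (chr9:15305953-15316997, plus strand) encodes another part of the selectivity factor and hosts small nucleolar RNAs in its introns. It was at 44.5, 44.7, 42.6 and 46.9 TPM in control and 48.3, 49.2, 47.3 and 42.2 TPM in cKO. Replicates 1, 2 and 3 of cKO exceeded all controls, and cKO replicate 4 was below all of them (log2 change 0.06, 95% interval -0.07 to 0.19, limma adjusted p = 0.563). Among the rows that lie inside it on the same strand, LOC115487273 was between 12.4 and 20.3 TPM (log2 change 0.32, limma adjusted p = 0.0875) and Gm25500 between 4.34 and 8.78 TPM (0.30, adjusted p = 0.288). Reads of such short rows cannot be told from those of the host with certainty. The ends of Taf1d also overlap 4931406C07Rik by 496 bp and Cep295 by 84 bp on the opposite strand.

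Ttf1 (chr2:29060199-29087656, plus strand), whose product stops Pol I at the terminator and shapes chromatin at the ribosomal promoter, was the lowest member. It was at 8.90, 8.79, 9.61 and 8.78 TPM in control and 9.95, 10.4, 10.1 and 9.36 TPM in cKO. Control replicate 3 reached into the cKO range, above cKO replicate 4, and the other 3 cKO libraries lay above all controls (log2 change 0.13, 95% interval -0.01 to 0.27, limma adjusted p = 0.239, exact two-sided permutation p = 0.0571).

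**Figure D3:**
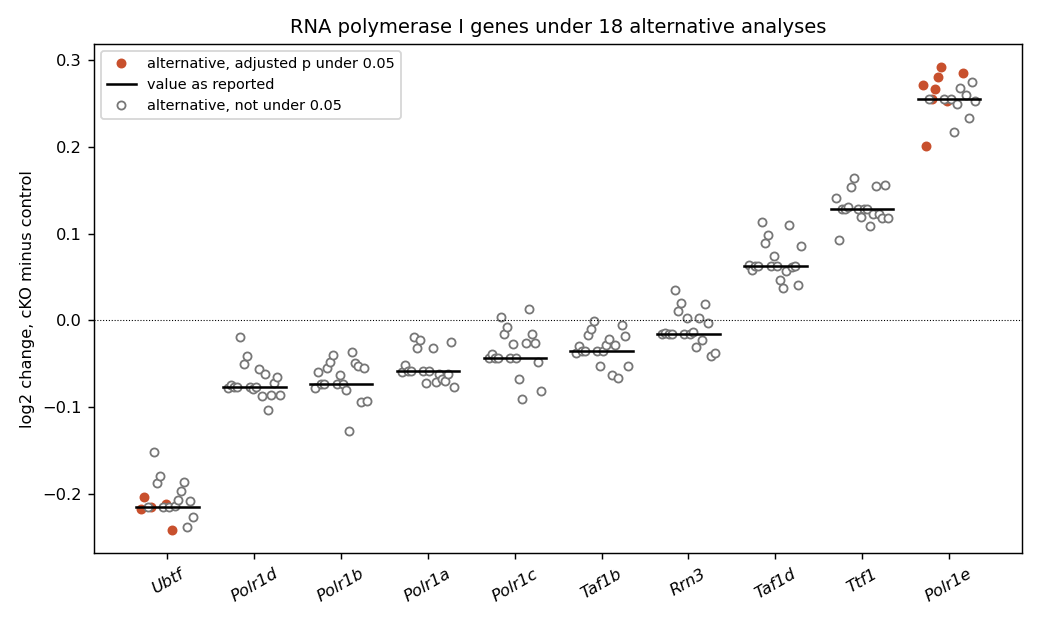
Log2 change of TPM (cKO minus control, y axis) of each of the 10 genes, with the reported value as a black line and 18 alternative analyses as points, filled where the limma adjusted p was under 0.05. Ubtf stays below 0 and Polr1e above 0 throughout, with 5 and 8 filled points, and the other 8 genes have none.

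The rest of the Pol I complex was described with a list of 11 further genes. Of these, 0 were called by limma over all tested rows, and 3 had an unadjusted p under 0.05 (Cd3eap, Polr2f and Polr2k). That is a similar share to the 3687 of 15541 tested rows with an unadjusted limma p under 0.05. Twistnb, which encodes a subunit of the stalk, was between 15.1 and 17.96 TPM (log2 change -0.07), and Znrd1, which encodes the small subunit that helps cleave the transcript, was between 26.8 and 34.2 TPM (log2 change 0.02). The selectivity factor genes Taf1a, Taf1c and Tbp had log2 changes of 0.03, -0.02 and -0.01. Among 5 subunits common to all 3 nuclear polymerases, Polr2k had the largest positive change at 0.28 (limma adjusted p = 0.137) and Polr2f the largest negative change at -0.19 (adjusted p = 0.167). The median over the 11 genes was -0.0056, beside -0.02 over all tested rows, with 5 genes above 0 and 6 below.

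The other nuclear polymerases served for comparison. Of 11 subunits found only in Pol III, 0 were called by limma and 0 had an unadjusted p under 0.05, with a median log2 change of -0.03. Of 11 Pol III factors 0 were called and 2 had an unadjusted p under 0.05 (median -0.07), beside 3687 of 15541 tested rows. Of 8 genes of RNA polymerase II, 3 had an unadjusted limma p under 0.05 (median -0.07), beside the same 3687 of 15541 rows. By limma 1 of the 8 was called, beside 6.4% of all tested rows. This was Polr2m, whose product is a subunit that restrains the enzyme. It fell, with 275 ± 5.09 TPM in control and 239 ± 9.69 TPM in cKO (SD over 4 libraries, a log2 change of -0.20, limma adjusted p = 0.0275). This call was kept in 6 of 18 alternatives and lost under all 3 scalings and without any single library except cKO replicate 4.

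**Figure D4:**
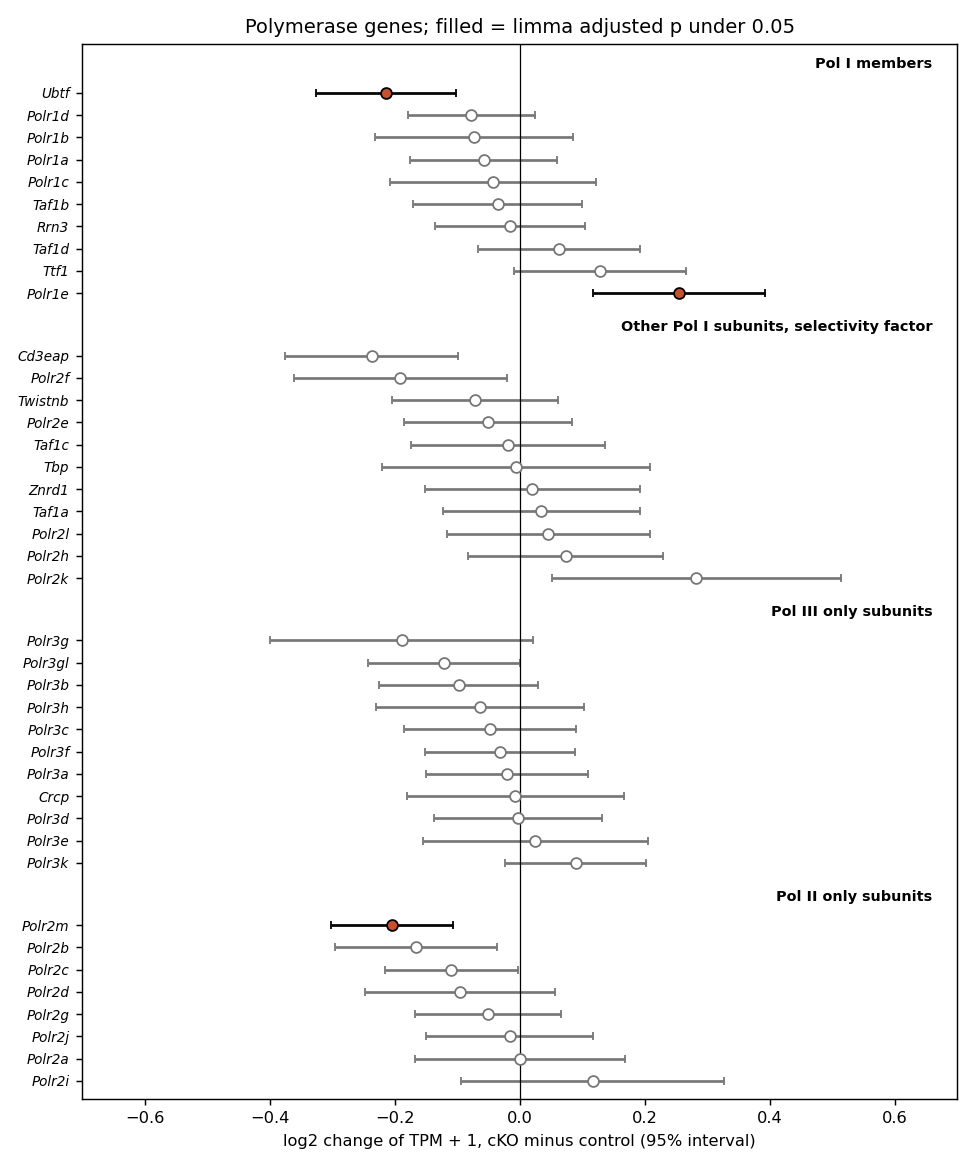
Log2 change of TPM + 1 (cKO minus control, x axis) with its 95% interval for the 10 members, 11 further Pol I genes, 11 Pol III subunits and 8 Pol II subunits, ordered by change within each set. Filled points mark a limma adjusted p under 0.05, which were Ubtf, Polr1e and Polr2m.

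Regulators of ribosomal repeat transcription were described with a list of 35 genes, of which 34 were tested. By limma, 3 fell and 0 rose, beside 6.4% of all tested rows called, 4.23% lower and 2.16% higher. These 3 calls among 34 genes are too few to set the regulators apart from all tested rows. At an unadjusted limma p under 0.05 were 13 of 34, beside 3687 of 15541 tested rows. Changes lay below 0 for 23 of 34, beside 8678 of 15541. The list was not tested as a set. The median was -0.07. Tcof1, whose product (treacle) works with Ubtf at the repeats, fell, with 31.7 ± 1.72 TPM in control and 27.1 ± 0.652 TPM in cKO (SD over 4 libraries, a log2 change of -0.22, limma adjusted p = 0.0383). Smarca5, the remodelling ATPase of the complex that silences repeats and of other remodellers, averaged 60.1 ± 5.75 TPM in control and 47.9 ± 3.94 TPM in cKO (SD, n = 4), a log2 change of -0.32 (limma adjusted p = 0.0382). Tcof1 and Smarca5 each kept their call in 5 of 18 alternatives and lost it under all 3 scalings. Left-out libraries ended the Tcof1 call in all cases but control replicate 2, and the Smarca5 call in all cases but cKO replicate 4. Top2a, the topoisomerase of dividing cells that also acts in Pol I initiation, averaged 189.6 ± 12.2 TPM in control and 146 ± 9.49 TPM in cKO (SD, n = 4), a log2 change of -0.38 (limma adjusted p = 0.00976) that passed in all 18 alternatives. Of the 6 processome factors required for repeat transcription, 0 were called by limma and 0 had an unadjusted p under 0.05 (median -0.06).

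The product of Pol I was seen only through Rn18s-rs5 (chr17:39846354-39848202), a row for the small-subunit ribosomal RNA. It was at 1759.9, 3959, 2394 and 4794 TPM in control and 2874, 3566, 2175 and 6349 TPM in cKO. The replicates of 1 group differed more than the group means, and the log2 ratio of means was 0.21 (exact two-sided permutation p = 0.686). Without cKO replicate 4, the highest library, the ratio was -0.17. The submitted texts name both depletion of ribosomal RNA and poly(A) selection, and either removes most of this RNA, so the row does not measure Pol I output.

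Library profiles most like those of Polr1e and Ubtf were looked up over the 8 libraries, by the root mean square difference of log2(TPM + 1) after each gene was centred on its own mean. For Polr1e these were Tmed3 (0.0335), Bfar (0.0391) and Lama3 (0.0422), against a median of 0.188 over all tested named genes. Lama3 averaged only 1.49 TPM, close to the filter of 1 TPM. Their log2 changes between the groups were 0.24, 0.21 and 0.24. For Ubtf they were Prdx6 (0.0256), Thoc3 (0.033) and Psmd4 (0.0345), against a median of 0.151, with log2 changes of -0.19, -0.24 and -0.17. The measure includes the group difference, so likeness beyond a shared change was not separated. The member nearest to Polr1e was Ttf1 (0.082) and that nearest to Ubtf was Polr1b (0.101), both farther than the genes named above.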

How the data were processed

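RNA of ventricular tissue was sequenced in 4 cKO and 4 control libraries. The authors deposited 1 table of TPM values, each library summing to 1000000. Per the submitters' processing notes, FastQC, Trim Galore 0.6.7, HISAT2 2.2.1, StringTie 2.2.1, featureCounts and DESeq2 were used with GRCm38, in roles not given. Strand use in counting is not given in the sources used here. TPM keeps no depth, so precision is the spread between libraries (median SD of the members within groups, 0.0699 on the log2 scale).

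Groups and replicate numbers came from the sample titles. The main test was limma 3.58.1 in R 4.3.3 (lmFit, eBayes with a trend, group as the only term, two-sided) on log2(TPM + 1), for 15541 rows with a mean of at least 1 TPM. P-values were adjusted over all of them, and intervals are 95% intervals of this fit. Single values were tested by exact permutation over 70 assignments. The procedure was tested on simulated data.

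The 18 alternatives were a pseudocount of 0.1 or 5, no filter, a mean of at least 5 TPM, 3 other scalings, eBayes without a trend, array weights, a replicate block, and leaving out each of 8 libraries. Besides the members and Rps19bp1, genes were named when called in a further list (at most 4 per list), when overlapping a member, or when among the 3 most like profiles. Other named genes were chosen after their values were seen. The members and lists were chosen with earlier results of these data known. Twistnb, Cd3eap and Znrd1 are the table's names for Polr1f, Polr1g and Polr1h.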

Additional observations from a re-analysis of the deposited data

Results flagged for a closer look

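In 34 groups of 4 libraries, the highest or lowest library was compared with the others by its gap over the range, and 3 stood beyond the 95% limit of Dixon's test, where chance gives about 1 group in 20. Taf1b was at 17.5 TPM in cKO replicate 3 and between 15.95 and 16.2 TPM in the other cKO libraries. Ttf1 was at 9.61 TPM in control replicate 3 and between 8.78 and 8.9 TPM in the other controls. Top2a was at 131 TPM in cKO replicate 3 and between 149.9 and 151 TPM in the other cKO libraries.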

How the results depend on the processing

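The count of called members was 2 under 4 of 18 alternatives. It was 1 (Polr1e) with quantile normalization, median-ratio scaling or rescaling without mitochondrial, globin and ribosomal RNA rows, and 0 by limma without a filter (3 members at an unadjusted p under 0.05), without a trend (3) and with the replicate block (2). Leaving out single libraries gave 0 to 1 called members, with 2 or 3 at an unadjusted p under 0.05 each time. Over all tested rows 994 calls became 347 without a filter, 609 without a trend, 420 with the replicate block and 390 to 938 with single libraries left out. The 4 calls in the further machinery lists became 2 without a filter, 1 under each of the 3 scalings, 1 without a trend, 1 with the block and 1 to 5 with single libraries left out. Whether same-numbered libraries share more than a number is not given in the sources used here. Their deviations from the group means correlated between -0.089 and 0.067, and 2 of 4 cKO libraries correlated best with their own number. Signs turned for 2 members far from the threshold. Polr1c was 0.0041 after quantile normalization and -0.091 to 0.013 with single libraries left out. Rrn3 was 0.0355 after quantile normalization, 0.011 after median-ratio scaling, 0.01995 after rescaling, 0.0033 with array weights and -0.041 to 0.019 with single libraries left out. The log2 ratio of Rn18s-rs5 ran from -0.17 to 0.47 with single libraries left out. The median change of the members ran from -0.064 to -0.0041 over all 18. Depth is unknown, so no limit of detection could be set.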

Other observations

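Among nucleolar proteins on the regulator list, 2 abundant genes had large but unsettled differences. Npm1, a histone chaperone of the nucleolus, was at 741, 606, 596 and 652 TPM in control and 603, 615, 379 and 416 TPM in cKO. Its cKO replicates 3 and 4 were far below the other 6 libraries, while cKO replicates 1 and 2 lay within the control range (log2 change -0.39, limma adjusted p = 0.157). Ncl, which binds ribosomal precursor RNA and chromatin, was at 191, 165, 173 and 156 TPM in control and 136, 140.4, 144 and 157 TPM in cKO. Here cKO replicate 4 lay just above control replicate 4 (log2 change -0.24, limma adjusted p = 0.0670). Both genes were chosen after their values were seen.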
